A study of Rattus norvegicus with 82 samples.

Results

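The genes described here belong to interleukin-6 (IL-6) family and interleukin-1 (IL-1) signalling in the rat heart. The list held 10 genes, chosen by symbol: the cytokines Il6 and Lif, the receptor genes Il6r, Il6st and Osmr, the transcription factor gene Stat3, its feedback gene Socs3, the kinase gene Pim1, and the IL-1 genes Il1b and Il1r1. Osmr was not among the symbols of the probe annotation, so 9 of the 10 genes had values, out of 14217 genes that a probe set named alone. A gene with several probe sets was read from its brightest, by the mean of the 82 arrays. Of the 9 genes, 6 (Il6r, Il6st, Stat3, Socs3, Il1b and Il1r1) were bright enough to be tested, among 11319 tested genes, and Il6, Lif and Pim1 were too dim.

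Hearts came from male Wistar rats of the Crl:Wi(Han) stock, 1 rat to an array, 6 h or 24 h after an intravenous injection. The treated groups received vinblastine at 0.5 or 3 mg/kg, vincristine at 0.1 or 1 mg/kg, or colchicine at 0.2 or 2 mg/kg, each in saline, and the controls received saline alone. These compounds bind tubulin, the protein of microtubules. Each of the 14 groups held 6 arrays, except vincristine 0.1 mg/kg with 5 at each time. The RNA was extracted from whole heart tissue, so all cell types of the heart and of the blood in it contributed.

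IL-6 family cytokines bind a receptor of their own, such as the IL-6 receptor encoded by Il6r, and this complex engages gp130, the shared signalling chain encoded by Il6st. Janus kinases bound to gp130 then phosphorylate STAT3, which enters the nucleus and switches on genes that include Socs3, whose product binds gp130 and the kinases and damps the signal, and Stat3 itself. In the heart this route is known from studies of cardiomyocyte survival and of the response to injury. IL-1β signals through the receptor encoded by Il1r1 and the adaptor MyD88 to NF-kappaB, and is a known inducer of Il6 in many cell types. The arrays measured messenger RNA, not phosphorylated STAT3 or secreted cytokine.

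Array medians lay between 57.6 and 63.3 intensity units, and no arrays were identical. The 6 cardiomyocyte markers on the array were bright in every rat, with summed intensities between 91879 and 123284. Before the results, 10 arrays need to be named, because their profiles over all tested genes lay nearer another group's median profile than their own (distance ratio above 1.3). They were vinblastine 0.5 mg/kg 6 h replicate 6 and 24 h replicate 5, vinblastine 3 mg/kg 6 h replicate 1, vincristine 0.1 mg/kg 24 h replicate 5, and vincristine 1 mg/kg 6 h replicate 3. The others were colchicine 0.2 mg/kg 6 h replicates 1 and 6 and 24 h replicate 6, and colchicine 2 mg/kg 6 h replicate 4 and 24 h replicate 1. On colchicine 2 mg/kg 6 h replicate 4, for example, Tuba4a, a tubulin gene, read 4695 and S100a9, a neutrophil gene, read 35.0, against a saline Tuba4a median of 5187 at 6 h. The 10 arrays were not alike in this. Tuba4a ran from 556 to 841 over all vinblastine 3 mg/kg 6 h arrays, and from 548 to 776 over all colchicine 2 mg/kg 24 h arrays. All 10 arrays stayed in the main comparisons, and results that rest on them are also given without them.

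At the higher dose of each compound the tested genes were higher than under saline or did not pass the test, and none fell. At 24 h after colchicine 2 mg/kg all 6 tested genes rose, with Stat3 up by 1.78 ± 0.23 on the log2 scale (standard error). At 24 h after vincristine 1 mg/kg Il6st, Stat3 and Il1b rose, and at 24 h after vinblastine 3 mg/kg only Stat3 rose among the 6. At 6 h vinblastine 3 mg/kg raised Il6st, Stat3, Socs3, Il1b and Il1r1, while after vincristine 1 mg/kg and colchicine 2 mg/kg Il1r1 alone passed the test among the 6. A call is an adjusted p under 0.05 in a limma fit, with Benjamini-Hochberg adjustment over all 11319 tested genes, and changes are differences of mean log2(intensity + 16). In bulk tissue, fewer cells of a type and less RNA per cell cannot be told apart, and the same holds for gains.

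These counts stood against a large response over all genes. Among all tested genes, 15.7% were called higher 6 h after vinblastine 3 mg/kg, where 5 of the 6 genes were called, 2.05% after vincristine 1 mg/kg (1 of 6) and 4.89% after colchicine 2 mg/kg (1 of 6). At 24 h the background was 5.29% for vinblastine 3 mg/kg (1 of 6), 12% for vincristine 1 mg/kg (3 of 6) and 19.3% for colchicine 2 mg/kg (6 of 6). With 1 gene of 6 as the smallest possible step, a single called gene is not a result about the list. Genes called lower made up 7.67%, 1.25% and 4.37% of all tested genes at 6 h after vinblastine 3 mg/kg, vincristine 1 mg/kg and colchicine 2 mg/kg, and 4.28%, 18.4% and 25.3% at 24 h, with 0 of the 6 among them each time. Comparisons at the same time share their saline arrays, so their counts are not independent of each other.

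At the lower doses 0 of the 6 genes passed limma's test in any comparison with saline, and 0 had an unadjusted p under 0.05. The background there was also near 0, at 0.00883% for vinblastine 0.5 mg/kg, 0% for vincristine 0.1 mg/kg and 0.247% for colchicine 0.2 mg/kg at 6 h, and 0% for each of the 3 at 24 h. Lower adjusted p-values than 0.827 did not occur among the 6 genes at these doses. Between saline at 24 h and saline at 6 h, 0 of the 6 genes passed limma's test and 0 had an unadjusted p under 0.05, with 0% of all tested genes called higher.

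**Figure D1:**
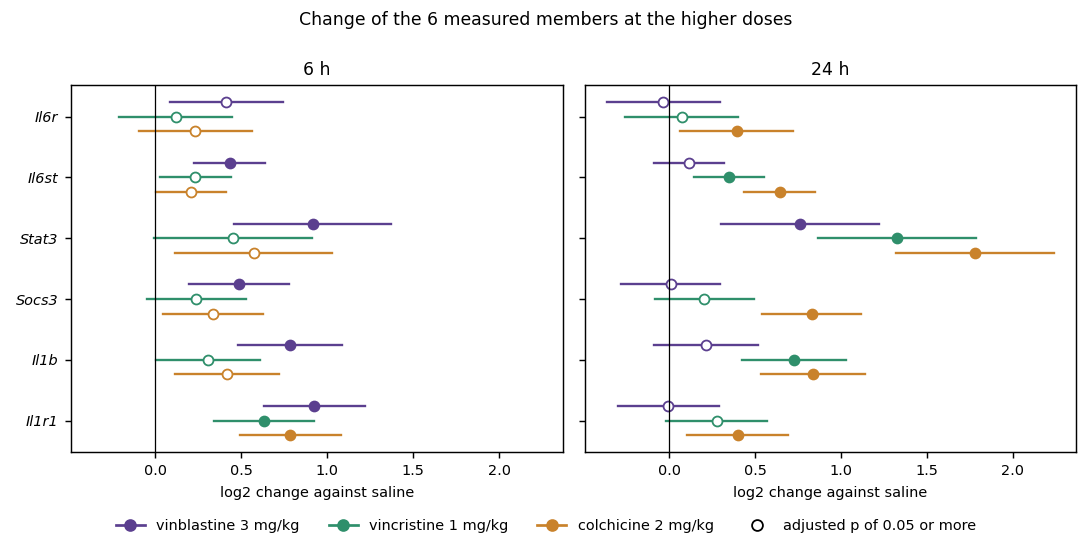
Log2 change against saline (points) with its 95% interval (bars) for the 6 tested genes at the higher dose of each compound, at 6 h and at 24 h. Filled points passed the adjusted p threshold of 0.05 and open points did not. Stat3 after colchicine 2 mg/kg at 24 h has the largest change, at 1.78.

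The stretches upstream of these genes are shown because several of the genes moved together and because NF-kappaB, C/EBP and STAT proteins are textbook regulators of Il6, Il1b and Stat3. RefSeq (assembly GRCr8) gave a promoter window, 250 bases before to 50 bases after the gene's start, for 8 of the 9 measured genes. Capitals mark matches, on either strand, to the NF-kappaB sequence (GGGA and CC with any 4 bases between them) and to TTGCNNAA for C/EBP. All 3 windows are printed 5′ to 3′ on the gene's own strand, the minus strand: Il6 at chr4:5894526-5894825, Stat3 at chr10:86363310-86363609 and Il1b at chr3:137036532-137036831.
Il6: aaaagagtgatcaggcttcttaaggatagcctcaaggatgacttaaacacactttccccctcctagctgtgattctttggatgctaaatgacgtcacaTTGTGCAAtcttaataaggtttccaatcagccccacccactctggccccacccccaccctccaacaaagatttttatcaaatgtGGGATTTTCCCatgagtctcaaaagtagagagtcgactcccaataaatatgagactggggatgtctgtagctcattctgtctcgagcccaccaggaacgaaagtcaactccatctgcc
Stat3: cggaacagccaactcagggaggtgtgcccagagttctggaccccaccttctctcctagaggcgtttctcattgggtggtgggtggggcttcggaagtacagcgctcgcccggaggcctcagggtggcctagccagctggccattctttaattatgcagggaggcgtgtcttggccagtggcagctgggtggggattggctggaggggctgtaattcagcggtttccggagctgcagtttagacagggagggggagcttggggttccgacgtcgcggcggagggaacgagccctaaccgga
Il1b: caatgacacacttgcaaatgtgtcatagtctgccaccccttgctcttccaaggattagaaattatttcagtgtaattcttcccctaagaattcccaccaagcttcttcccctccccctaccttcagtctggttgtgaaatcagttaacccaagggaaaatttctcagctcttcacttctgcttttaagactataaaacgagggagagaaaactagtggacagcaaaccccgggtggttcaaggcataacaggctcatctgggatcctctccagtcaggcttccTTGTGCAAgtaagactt

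In the Il6 window an NF-kappaB match ran from base -68 to -59 before the start, with an overlapping match on the other strand from -67 to -58, and a C/EBP match from -152 to -145. In the Il1b window a C/EBP match lay at bases 34 to 41 after the start, and the Stat3 window held neither. Over the 8 windows, NF-kappaB matches occurred in 3 (Il6, Il6st and Pim1), against 19.3% of all 33469 RefSeq promoter windows, and C/EBP matches in 2, against 10.6%. The Il6st match ran from base -1 to 9 and the Pim1 match from 1 to 10, so both lay at the annotated start and not upstream of it. Whether transcription begins at the annotated starts of these windows was not tested. The palindromic STAT sequence TTCNNNGAA occurred in 0 of the 8, against 8.87% of all windows, and the AP-1 sequence TGANTCA in 0, against 7.33%. A match is a run of letters and not a measured binding site, and no match says only that these letters are not in this window.

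Of the ligands, Il6, the founding cytokine of the family, was near the bottom of the scale in most hearts. It passed the brightness filter, the 40th percentile of the array, on 2 of 82 arrays. At 6 h after colchicine 2 mg/kg its intensities were 16.8, 19.9, 20.2, 20.5, 21.8 and 119, against a lowest, median and highest value of 15.7, 16.6 and 17.8 under saline. At 24 h they were 13.8, 15.9, 19.6, 24.4, 25.1 and 64.2 after colchicine 2 mg/kg, against 16.1, 16.6 and 17.4 under saline. Replicate 2 at 6 h and replicate 3 at 24 h therefore stood well above their groups. Of the other 5 colchicine values, 4 lay above every saline value at 6 h, and at 24 h 3 lay above and 2 below every saline value.

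After vinblastine 3 mg/kg at 6 h the lowest, median and highest Il6 values were 14.2, 16.5 and 34.8, and the highest was replicate 1, one of the 10 arrays named above. In a fit without the brightness filter, Il6 after colchicine 2 mg/kg differed from saline by 0.45 ± 0.15 at 6 h (adjusted p = 0.0569) and by 0.31 at 24 h (adjusted p = 0.109), so neither passed. Against colchicine 0.2 mg/kg at 6 h the difference was 0.50 (adjusted p = 0.0303), and the 2 mg/kg and 0.2 mg/kg values did not overlap. Without replicate 2 of the 2 mg/kg group the difference was 0.18 (adjusted p = 0.423), and against saline it was 0.13 (0.557). With all arrays, 0.0303 was the lowest adjusted p of Il6 in any comparison, for a gene that was dim on nearly every array.

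Lif encodes leukaemia inhibitory factor, an IL-6 family cytokine that signals through gp130 and its own receptor chain. Its intensities ran from 21.3 to 32.3 over all 82 arrays, with a median of 26.4. No array passed the brightness filter, and the lowest adjusted p without it was 0.281. Pim1 encodes a serine/threonine kinase that is a known STAT3 target gene. It ran from 23.3 to 38.4, with a median of 29.7, passed the filter on 0 arrays and had a lowest adjusted p of 0.223. Its highest value, 38.4, belonged to a saline heart at 24 h, so that treated and saline values overlapped. For Il6, Lif and Pim1 the signal was too close to the dim end of the array to follow a change of modest size.

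**Figure D2:**
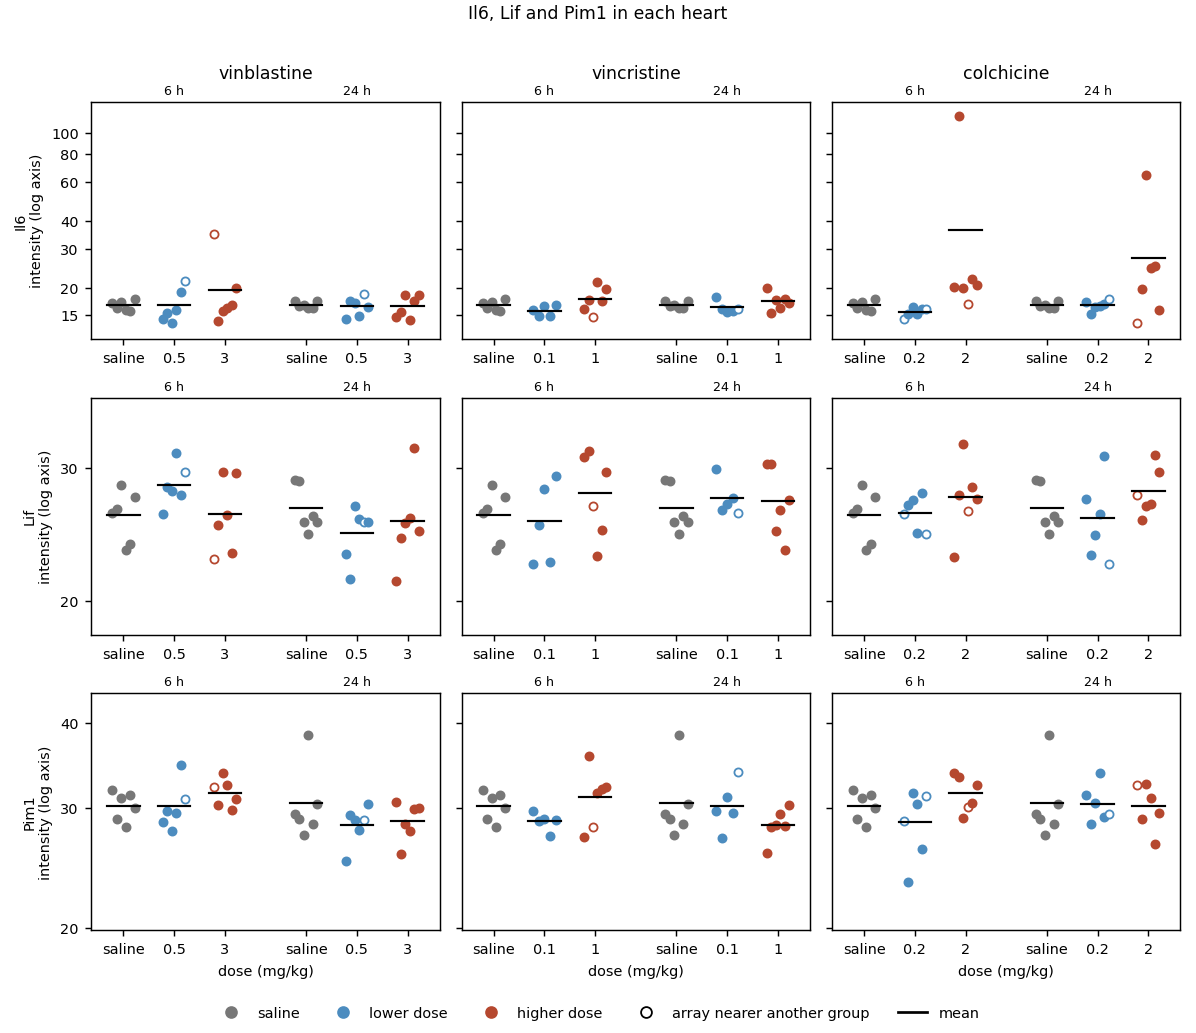
Intensity (log axis) of Il6, Lif and Pim1 in each rat, with columns for vinblastine, vincristine and colchicine and, within each, saline, the lower and the higher dose at 6 h and then at 24 h. Circles are arrays, open where the array lay nearer another group, and black bars are group means. Il6 reached 119 and 64.2 on single colchicine 2 mg/kg arrays, while Lif and Pim1 stayed between 21.3 and 38.4.

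Among the receptors, Il6r was measured above the filter on 74 of 82 arrays and passed the test against saline in 1 comparison. At 24 h its lowest, median and highest intensities were 62.0, 73.1 and 120 after colchicine 2 mg/kg, against 41.9, 57.7 and 68.8 under saline. In 4 of 6 colchicine hearts Il6r was above every saline heart, and the ranges overlapped. The change was 0.39 ± 0.16 (adjusted p = 0.0444), and it no longer passed without the filter (adjusted p = 0.0546), without saline replicate 1 (0.120), 4 (0.0752) or 6 (0.0724), or without colchicine replicate 2 (0.161) or 3 (0.0979). Without the 10 arrays it passed, at 0.45 (adjusted p = 0.00539). At 6 h after vinblastine 3 mg/kg Il6r had 48.3, 63.2 and 172, against 41.5, 49.4 and 74.5 under saline, with a change of 0.41 ± 0.16 (adjusted p = 0.0587). The 172 was again replicate 1, and without the 10 arrays the change was 0.20 (adjusted p = 0.408).

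Il6st, the gp130 gene, was among the genes above the filter on every array. At 24 h its lowest, median and highest intensities were 1210, 1946 and 2499 after colchicine 2 mg/kg, 1435, 1543 and 1680 after vincristine 1 mg/kg, and 1206, 1290 and 1436 after vinblastine 3 mg/kg, against 1147, 1219 and 1248 under saline. Every vincristine heart was above every saline heart, and so were 5 of 6 hearts after each of the other compounds. The changes were 0.64 ± 0.10 for colchicine (adjusted p = 3.53e-07), 0.35 ± 0.10 for vincristine (0.00667) and 0.12 for vinblastine (0.571). The doses differ between compounds, so the 3 changes stand side by side without a test between them.

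At 6 h Il6st had 1267, 1443 and 2611 after vinblastine 3 mg/kg, 1118, 1319 and 1577 after vincristine 1 mg/kg, and 1073, 1361 and 1464 after colchicine 2 mg/kg, against 1002, 1134 and 1277 under saline. The vinblastine group was called (0.43 ± 0.10, adjusted p = 0.00132), with 5 of 6 hearts above every saline heart and replicate 1 far above the rest at 2611. Without replicate 1 the change was 0.28 (adjusted p = 0.0300). After vincristine the change was 0.23 (adjusted p = 0.198) and after colchicine 0.21 (adjusted p = 0.224). The 4 probe sets for Il6st all gave positive changes at the 3 higher doses and both times, but not the same calls in a fit over all tested probe sets. A second was also called at 24 h after vinblastine (0.49, adjusted p = 0.00449), where the brightest was not. Another was not called at 6 h after vinblastine (0.45, 0.113) or at 24 h after vincristine (0.28, 0.351).

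Stat3, which encodes the transcription factor that gp130 activates, had the largest changes of the 6 tested genes at 24 h after each higher dose. Its lowest, median and highest intensities at 24 h were 1061, 3058 and 4666 after colchicine 2 mg/kg, 1520, 1778 and 4241 after vincristine 1 mg/kg, and 726, 1451 and 1965 after vinblastine 3 mg/kg, against 732, 780 and 909 under saline. All colchicine and vincristine hearts were above every saline heart, and 5 of 6 vinblastine hearts were. The mean after colchicine was 2994 ± 1153, against 791 ± 62.7 under saline (SD, n = 6 each), a change of 1.78 with a 95% interval of 1.32 to 2.24 (adjusted p = 2.25e-09).

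The vincristine change was 1.33 ± 0.23 (adjusted p = 5.89e-06) and the vinblastine change 0.76 ± 0.23 (adjusted p = 0.0218). In the vincristine group replicate 5 read 4241 and the others 1520 to 1953, and without it the change was 1.11 (adjusted p = 0.000127). The vinblastine call was lost without replicate 6 (0.66, adjusted p = 0.0776). In the colchicine group the low value of 1061 was replicate 1, one of the 10 arrays, while the other 5 hearts read 2839 to 4666. Without the 10 arrays the colchicine change was 2.05 (adjusted p = 1.76e-16).

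At 6 h Stat3 had 921, 1399 and 3777 after vinblastine 3 mg/kg, 874, 1207 and 1603 after vincristine 1 mg/kg, and 763, 1447 and 1647 after colchicine 2 mg/kg, against 671, 866 and 983 under saline. Only the vinblastine group passed, at 0.91 ± 0.23 (adjusted p = 0.00224), with 5 of 6 hearts above every saline heart. Its highest value, 3777, was replicate 1, and without that array the change was 0.67 (adjusted p = 0.0348). Vincristine (0.45, 95% interval -0.01 to 0.91, adjusted p = 0.277) and colchicine (0.57, 0.11 to 1.03, adjusted p = 0.110) did not pass.

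Without the 10 arrays the Stat3 changes at 6 h were 0.67 for vinblastine (adjusted p = 0.00318), 0.53 for vincristine (0.0294) and 0.72 for colchicine (0.00115), and all 3 passed. A second Stat3 probe set gave 1.08 (adjusted p = 4.75e-05), 0.54 (0.111) and 0.67 (0.0168) at 6 h for vinblastine, vincristine and colchicine, and at 24 h 0.65 (0.0194), 0.97 (6.09e-05) and 1.63 (2.32e-10). It therefore made a further call, after colchicine at 6 h. Under the lower doses Stat3 group means were between 870 and 996, against 853 at 6 h and 791 at 24 h under saline. The highest changes at the lower doses were 0.28 and 0.23, at 24 h after vinblastine 0.5 mg/kg and vincristine 0.1 mg/kg.

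**Figure D3:**
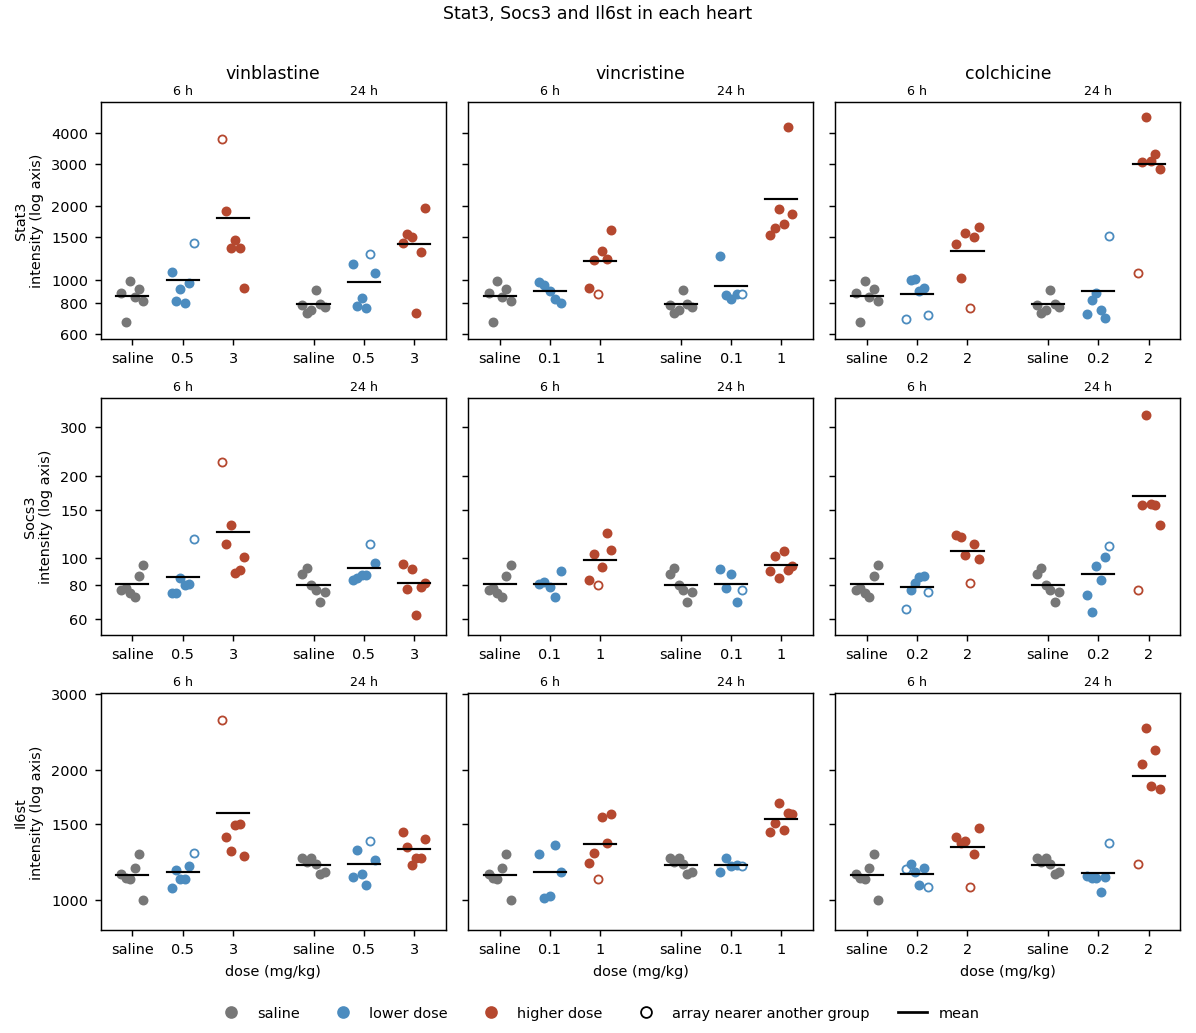
Intensity (log axis) of Stat3, Socs3 and Il6st in each rat, with columns for vinblastine, vincristine and colchicine and, within each, saline, the lower and the higher dose at 6 h and then at 24 h. Circles are arrays, open where the array lay nearer another group, and black bars are group means. At 24 h after colchicine 2 mg/kg the Stat3 values run from 1061 to 4666, all above the saline values of 732 to 909.

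Socs3, the feedback inhibitor of gp130 signalling, was called in 2 of the 6 comparisons of a higher dose with saline. At 24 h its lowest, median and highest intensities were 76.4, 156 and 333 after colchicine 2 mg/kg, against 69.4, 78.1 and 92.3 under saline. The change was 0.83 ± 0.14 (adjusted p = 2.10e-06), and 5 of 6 colchicine hearts were above every saline heart. The 1 that was not, at 76.4, was replicate 1, and without the 10 arrays the change was 1.01. At 24 h the vincristine 1 mg/kg hearts had 84.8, 92.3 and 107 (0.20, 95% interval -0.08 to 0.49, adjusted p = 0.306) and the vinblastine 3 mg/kg hearts 62.2, 80.3 and 95.2 (0.01, -0.28 to 0.30, adjusted p = 0.988). The vinblastine and vincristine values overlapped those under saline.

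At 6 h Socs3 had 88.3, 107 and 225 after vinblastine 3 mg/kg, 80.1, 98.2 and 123 after vincristine 1 mg/kg, and 81.4, 107 and 121 after colchicine 2 mg/kg, against 72.5, 77.2 and 94.6 under saline. The vinblastine change was 0.49 ± 0.14 (adjusted p = 0.00964), with 4 of 6 hearts above every saline heart, and it was lost without replicate 1 (0.32, adjusted p = 0.124). The colchicine change was 0.34 (0.05 to 0.62, adjusted p = 0.144), although 5 of 6 hearts were above every saline heart. Leaving out the 10 arrays kept the vinblastine call (0.32, adjusted p = 0.0371) and added one for colchicine (0.40, adjusted p = 0.00548). The vincristine change was 0.24 (adjusted p = 0.373). A missed threshold does not show that Socs3 was at its saline level in these groups.

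Il1b encodes IL-1β, a cytokine made mainly by myeloid cells. At 6 h its lowest, median and highest intensities were 63.2, 87.0 and 177 after vinblastine 3 mg/kg, 49.7, 62.6 and 89.4 after vincristine 1 mg/kg, and 39.7, 74.3 and 84.8 after colchicine 2 mg/kg, against 40.2, 48.5 and 57.6 under saline. The vinblastine values did not overlap those under saline, and the change of 0.79 ± 0.15 was called (adjusted p = 0.000111). It was 0.62 without replicate 1 (adjusted p = 0.00213). Vincristine (0.31, adjusted p = 0.256) and colchicine (0.42, adjusted p = 0.0700) did not pass at 6 h, and in the colchicine group replicate 4, one of the 10 arrays, was the low value of 39.7.

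At 24 h Il1b had 48.9, 92.3 and 144 after colchicine 2 mg/kg, 65.9, 77.2 and 99.1 after vincristine 1 mg/kg, and 45.5, 52.2 and 58.1 after vinblastine 3 mg/kg, against 37.4, 42.2 and 51.2 under saline. The vincristine values did not overlap those under saline (0.72 ± 0.15, adjusted p = 0.000137), and 5 of 6 colchicine hearts were above every saline heart (0.84 ± 0.15, adjusted p = 4.62e-06). The vinblastine change was 0.21 (adjusted p = 0.445).

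Il1r1 encodes the signalling receptor for IL-1. It was the one gene of the 6 called at 6 h after all 3 higher doses. Its lowest, median and highest intensities at 6 h were 465, 538 and 715 after vinblastine 3 mg/kg, 301, 498 and 544 after vincristine 1 mg/kg, and 305, 536 and 693 after colchicine 2 mg/kg, against 214, 292 and 339 under saline. The vinblastine values did not overlap those under saline, and 5 of 6 hearts were above every saline heart after vincristine and after colchicine. The changes were 0.93 ± 0.15 for vinblastine (adjusted p = 6.71e-06), 0.63 ± 0.15 for vincristine (0.0122) and 0.79 ± 0.15 for colchicine (0.000225). The vincristine call was lost without its replicate 4 (adjusted p = 0.0647) or replicate 5 (0.0511).

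At 24 h Il1r1 had 337, 397 and 525 after colchicine 2 mg/kg, 350, 372 and 450 after vincristine 1 mg/kg, and 244, 304 and 364 after vinblastine 3 mg/kg, against 286, 311 and 327 under saline. The colchicine change was 0.40 ± 0.15 (adjusted p = 0.0215), with no overlap, and it was lost without replicate 3 (0.0591) or replicate 5 (0.0756). The vincristine values did not overlap those under saline either, but the change of 0.28 did not pass (adjusted p = 0.151); without the 10 arrays it did (0.0278). The vinblastine change was 0.00 (-0.30 to 0.29, adjusted p = 0.993). The 3 Il1r1 probe sets disagreed: a second was called only after vinblastine 3 mg/kg at 6 h (0.30, adjusted p = 0.0272), and the third in none of the 6 comparisons, with changes from -0.11 to 0.17. The means of these probe sets over all arrays were 42.9 and 34.0, near the dim end of the arrays.

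**Figure D4:**
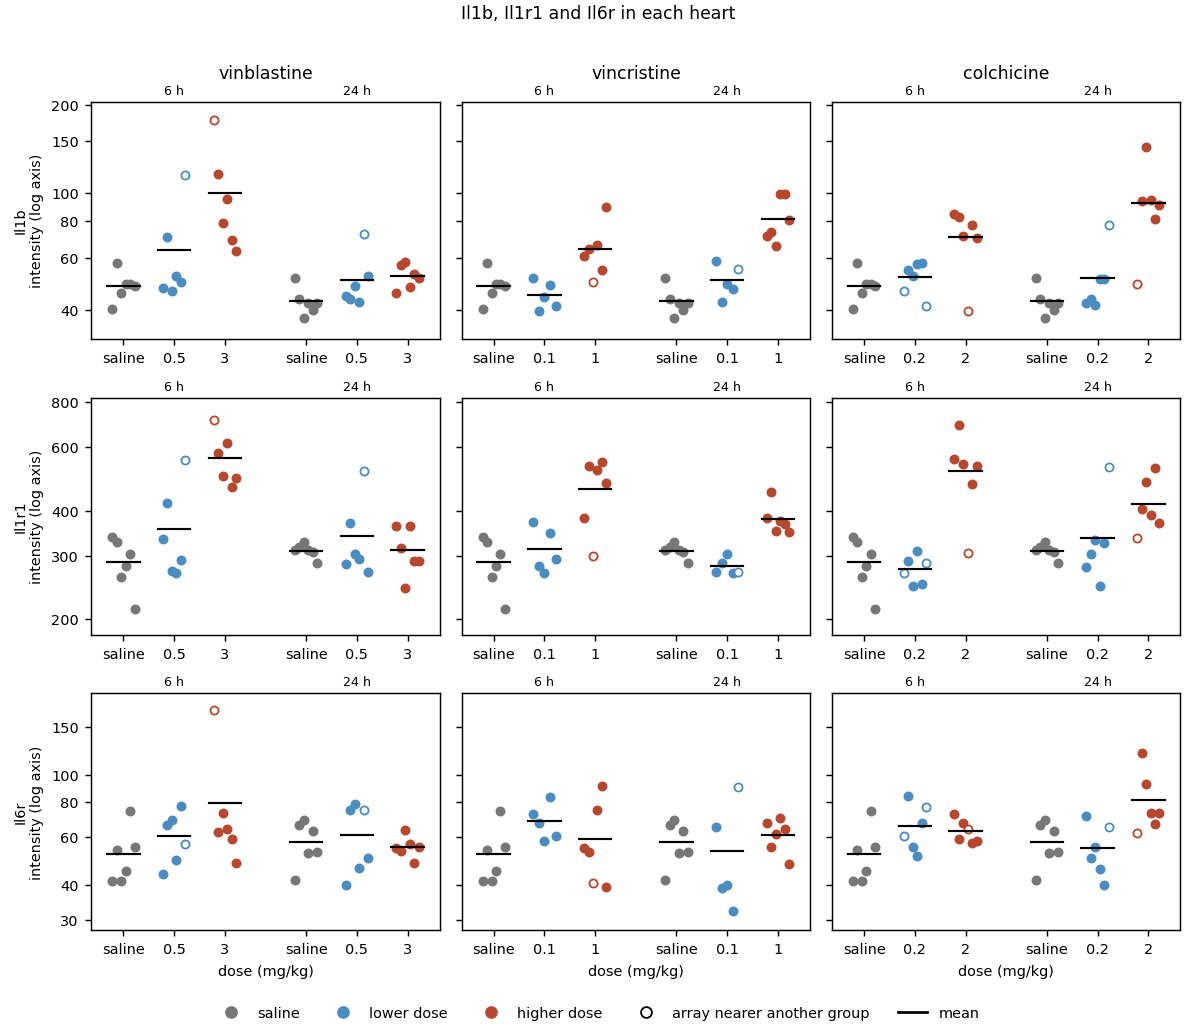
Intensity (log axis) of Il1b, Il1r1 and Il6r in each rat, with columns for vinblastine, vincristine and colchicine and, within each, saline, the lower and the higher dose at 6 h and then at 24 h. Circles are arrays, open where the array lay nearer another group, and black bars are group means. At 6 h after vinblastine 3 mg/kg Il1r1 runs from 465 to 715, above the saline values of 214 to 339.

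The higher dose was also set against the lower dose of the same compound. At 6 h vinblastine 3 against 0.5 mg/kg gave higher values of 4 of the 6 genes (background 5.81% of all tested genes): Il6st (0.41, adjusted p = 0.0101), Stat3 (0.71, 0.0393), Il1b (0.53, 0.0212) and Il1r1 (0.66, 0.00390). Without vinblastine 3 mg/kg replicate 1, Il6st (adjusted p = 0.139), Stat3 (0.331) and Il1b (0.209) no longer passed. Stat3 also missed the threshold without vinblastine 3 mg/kg replicate 2 or any 1 of vinblastine 0.5 mg/kg replicates 1 to 5 (adjusted p between 0.0594 and 0.0863), and Il1b without 0.5 mg/kg replicate 1, 3, 4 or 5 (adjusted p up to 0.0666). Vincristine 1 against 0.1 mg/kg (background 1.61%) and colchicine 2 against 0.2 mg/kg (background 4.47%) gave 1 called gene each at 6 h, which was Il1r1 (0.51, adjusted p = 0.0484, and 0.84, adjusted p = 8.23e-05). The vincristine call for Il1r1 was lost without any 1 of 8 arrays, vincristine 0.1 mg/kg replicates 2, 3, 4 and 5 and 1 mg/kg replicates 2, 4, 5 and 6 (adjusted p between 0.0555 and 0.143).

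At 24 h the dose comparison of vinblastine gave 0 called genes of 6 by limma, with 1 at an unadjusted p under 0.05 (background 3.92%). Vincristine 1 against 0.1 mg/kg gave 4 (background 12.3%): Il6st (0.35, adjusted p = 0.0118), Stat3 (1.10, 0.000393), Il1b (0.55, 0.00737) and Il1r1 (0.41, 0.0400). The Il1r1 call was lost without any 1 of replicates 1, 2, 4 and 5 of either dose (adjusted p between 0.0534 and 0.0947), and with the mean of its probe sets it was 0.10 (0.418). Colchicine 2 against 0.2 mg/kg gave 5 (background 18.8%): Il6r (0.45, adjusted p = 0.0206), Il6st (0.71, 5.03e-08), Stat3 (1.65, 2.12e-08), Socs3 (0.73, 2.57e-05) and Il1b (0.66, 0.000242). Il1r1 did not pass there (0.33, adjusted p = 0.0674), and Il6r no longer did without colchicine 0.2 mg/kg replicate 5 (0.0628) or 2 mg/kg replicate 2 (0.0901) or 3 (0.0523). The genes that rose against saline at 24 h after vincristine and colchicine therefore also differed between the doses, except Il1r1 after colchicine.

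Whether a change at 24 h differed from the change at 6 h was tested directly for each higher dose. For colchicine 2 mg/kg the change was larger at 24 h for Stat3 (by 1.21 ± 0.33, adjusted p = 0.00505) and Il6st (by 0.44 ± 0.15, adjusted p = 0.0258), with 6.3% of all tested genes called higher and 12.6% lower in this test. The Stat3 means behind it were 2994 against 791 at 24 h and 1311 against 853 at 6 h, colchicine against saline. Socs3 missed the threshold (0.49, adjusted p = 0.0813), and without the 10 arrays it passed (0.61, adjusted p = 0.00173). The Il6st call was lost without colchicine 2 mg/kg 6 h replicate 4 (adjusted p = 0.0659) or 24 h replicate 3 (0.0872) or 5 (0.0611). With the 10 arrays left out Il6st passed (0.51, adjusted p = 3.12e-05).

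For vinblastine 3 mg/kg the Il1r1 change was smaller at 24 h, by -0.93 ± 0.21 (adjusted p = 0.00448), with 1.78% of all tested genes called higher and 2.66% lower. Without the 10 arrays Il1r1 was also called lower in this test for vincristine (-0.47, adjusted p = 0.0210) and colchicine (-0.47, 0.0132). Of all tested genes 10.7% and 16.7% were then called lower. Among the vinblastine results, Il1r1 was the 1 called gene of the 6. The difference between the Stat3 changes of vinblastine at the 2 times was -0.15 (adjusted p = 0.834). For vincristine 1 mg/kg 0 of the 6 genes passed limma's test of the difference, with 1 at an unadjusted p under 0.05, against 3.53% of all tested genes called higher and 8.73% lower. Stat3 was the nearest, at 0.88 ± 0.33 (adjusted p = 0.0635), and without the 10 arrays it passed (0.80, adjusted p = 0.0139).

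Without the 10 arrays, Il6st, Stat3, Il1b and Il1r1 were called at 6 h after vincristine 1 mg/kg, and these genes and Socs3 after colchicine 2 mg/kg. Calls over all tested genes rose with them, to 7.2% higher after vincristine and 9.47% after colchicine, against 2.05% and 4.89% with all arrays. The added calls were Il6st (0.28, adjusted p = 0.00220) and Il1b (0.36, adjusted p = 0.00885) after vincristine and Il6st (0.27, adjusted p = 0.00269) and Il1b (0.54, adjusted p = 2.69e-05) after colchicine, beside the Stat3 and Socs3 values above. After vinblastine 3 mg/kg the same 5 genes stayed called at 6 h. Leaving these arrays out also removes spread within groups, and the choice was made after the data were seen.

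Other genes of the same routes were taken from 4 lists. Of 16 ligand and receptor genes of the IL-6 family, 13 were on the array and 8 were tested. Against saline, Il6st alone was called at 6 h after vinblastine 3 mg/kg and at 24 h after vincristine 1 mg/kg, and Il6r and Il6st at 24 h after colchicine 2 mg/kg. In that order these were 12.5%, 12.5% and 25% of the 8, beside 15.7%, 12% and 19.3% of all tested genes. The shares thus lay near the background. Il11ra1, the receptor for interleukin-11, rose at 24 h after vinblastine 3 mg/kg, to 901 ± 154 against 685 ± 55.3 under saline (0.38, adjusted p = 0.00144). It was the 1 call of the list there, 12.5% of the 8, beside 5.29% of all tested genes. Cntf, the ciliary neurotrophic factor gene, was higher at 6 h after colchicine 0.2 mg/kg, at 54.7 ± 17.4 against 31.0 ± 3.12 under saline (0.55 ± 0.13, adjusted p = 0.0405). That was the single call at a lower dose among the genes of the 4 lists.

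The list of Janus kinases, STATs and feedback genes had 25 tested members of 27, Stat3 and Socs3 included. At 6 h vinblastine 3 mg/kg raised 7 and lowered 2, vincristine 1 mg/kg raised 0 and lowered 1, and colchicine 2 mg/kg raised 2 and lowered 2. At 24 h the counts were 2 higher and 1 lower after vinblastine, 7 and 2 after vincristine, and 9 and 2 after colchicine. The shares higher were 28%, 0% and 8% at 6 h and 8%, 28% and 36% at 24 h, beside 15.7%, 2.05% and 4.89%, and 5.29%, 12% and 19.3%, of all tested genes. Without the 10 arrays, 7 were higher and 2 lower at 6 h after vincristine, and 7 and 2 after colchicine. Of all tested genes 7.2% and 9.47% were then called higher, and 5.12% and 9.87% lower. The list's median change with all arrays lay between 0.00 and 0.14 in these 6 comparisons, and that of all tested genes within 0.02 of 0. Jak2, a Janus kinase of gp130 signalling, rose at 24 h to 401 ± 191 after colchicine 2 mg/kg (1.64, adjusted p = 3.84e-08) and to 170 ± 21.7 after vincristine 1 mg/kg (0.63, 0.0378), against 104 ± 11.2 under saline.

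At 6 h Jak2 rose to 302 ± 382 after vinblastine 3 mg/kg, against 89.7 ± 16.1 under saline (1.08, adjusted p = 0.000586), with a spread larger than its mean. Ptpn2, a phosphatase that acts on Janus kinases and STATs, rose to 481 ± 163 at 24 h after colchicine, against 240 ± 24.9 under saline (0.89, adjusted p = 7.45e-07). Socs2, a SOCS family member best known for damping growth hormone signalling, fell at 24 h to 334 ± 123 after vinblastine (-0.81, adjusted p = 0.0236), 331 ± 123 after vincristine (-0.83, 0.00745) and 329 ± 154 after colchicine (-0.86, 0.00294), against 577 ± 118 under saline. Its direction was thus opposite to that of Socs3 after colchicine. Stat2, which acts in the interferon response, rose at 24 h after vinblastine (0.60, adjusted p = 2.47e-05) and vincristine (0.66, 7.06e-07).

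At 6 h Pias3, an inhibitor of STAT3, fell after vincristine (-0.38, adjusted p = 0.0187) and colchicine (-0.37, 0.00860), and Ptpn11, the SHP2 phosphatase, rose after colchicine (0.32, 0.00278). Socs7 rose at 6 h after vinblastine (0.39) and colchicine (0.36).

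A mixed list of 34 STAT3 target and acute phase genes had 27 tested members and none of the 6 genes above. At 6 h, 20 members were higher and 0 lower after vinblastine 3 mg/kg, 8 and 0 after vincristine 1 mg/kg, and 15 and 0 after colchicine 2 mg/kg. These are 74.1%, 29.6% and 55.6% of the tested members, beside 15.7%, 2.05% and 4.89% of all tested genes. At 24 h the counts were 6 higher and 1 lower (22.2%) after vinblastine, 17 and 2 (63.0%) after vincristine, and 23 and 1 (85.2%) after colchicine, beside 5.29%, 12% and 19.3%. The list's median changes were 1.04, 0.62 and 0.90 at 6 h and 0.31, 0.88 and 1.37 at 24 h, for vinblastine, vincristine and colchicine, with all-gene medians within 0.02 of 0. Without the 10 arrays the members called higher numbered 16, 17 and 20 at 6 h and 10, 19 and 23 at 24 h, beside 10.3%, 7.2% and 9.47%, and 8.01%, 14.4% and 22.4%, of all tested genes. The list was drawn up with results of these data known, so these shares describe it and are not independent evidence of its direction.

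Among its genes, Lcn2, which encodes lipocalin 2, an iron-binding protein of neutrophils and of the acute phase, rose at 24 h to 3806 ± 2248 after colchicine (3.71, adjusted p = 5.77e-11) and 1091 ± 273 after vincristine (2.38, 5.51e-06), against 195 ± 45.5 under saline. Mt2A, a metallothionein gene, rose to 4785 ± 3213 at 24 h after colchicine, against 339 ± 45.3 (3.27, adjusted p = 2.20e-08). Reg3b, a secreted lectin of the acute response, reached 3256 ± 4580 there, against 141 ± 37.6 (2.94), with a spread above its mean. At 6 h Tnfrsf12a, the receptor for the cytokine TWEAK, rose to 1429 ± 250 after vinblastine and 1384 ± 760 after colchicine, against 166 ± 21.1 under saline (2.97 and 2.55).

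Cebpb and Cebpd encode C/EBP transcription factors of the acute phase response. Cebpb rose at 6 h after vinblastine to 1127 ± 638, against 210 ± 69.7 under saline (2.26), and at 24 h to 658 ± 227, against 215 ± 55.2. Cebpd rose at 6 h after colchicine to 715 ± 276, against 176 ± 40.6 (1.79). After vincristine at 6 h the largest changes on the list were those of Tnfrsf12a (1.93), Cebpb (1.37) and Cebpd (1.31). Orm1, an acute phase plasma protein, rose at 24 h to 183 ± 47.0 after vincristine (2.12) and 123 ± 53.3 after vinblastine (1.55), against 28.8 ± 2.82 under saline. That saline mean lay below the 40th percentile of every array (38.5 to 44.1). How far treated hearts alone carried Orm1 past the filter was not tested. Cd14, a coreceptor for bacterial lipopolysaccharide, rose at 24 h after vinblastine to 294 ± 74.5, against 101 ± 13.9 (1.38).

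The IL-1 list had 19 tested members of 25. At 6 h 8 were higher and 0 lower after vinblastine (42.1%), 1 and 0 after vincristine (5.26%), and 6 and 2 after colchicine (31.6%). At 24 h the counts were 1 and 0 (5.26%), 8 and 1 (42.1%), and 8 and 3 (42.1%), in the same order of compounds. The shares of all tested genes were 15.7%, 2.05% and 4.89% at 6 h and 5.29%, 12% and 19.3% at 24 h. Without the 10 arrays 6 rather than 1 were higher at 6 h after vincristine, and 3 rather than 1 at 24 h after vinblastine. The shares of all tested genes called higher rose alongside, to 7.2% and 8.01%. Il1r2, the decoy receptor that binds IL-1 without signalling, rose at 6 h to 98.1 ± 82.4 after vinblastine (1.42) and 65.9 ± 23.1 after colchicine (1.12), against 20.1 ± 1.84 under saline. At 24 h it rose to 105 ± 50.2 after colchicine (1.54) and 45.7 ± 12.9 after vincristine (0.70), against 21.5 ± 0.969 under saline. The saline values of Il1r2 lay below the 40th percentile of the arrays (38.5 to 44.1). It was therefore tested only because treated hearts were brighter, and its part in the shares above is not independent of the filter. Myd88, the adaptor of the IL-1 receptor, rose by 0.93 and 0.65 at 6 h after vinblastine and colchicine, and by 0.83 and 1.34 at 24 h after vincristine and colchicine. Irak3, an inhibitor of that route, rose by 0.96, 0.75, 0.95 and 1.13 in those 4 comparisons, and Il18, an IL-1 family cytokine, by 0.24 at 24 h after vinblastine (adjusted p = 0.0153).

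**Figure D5:**
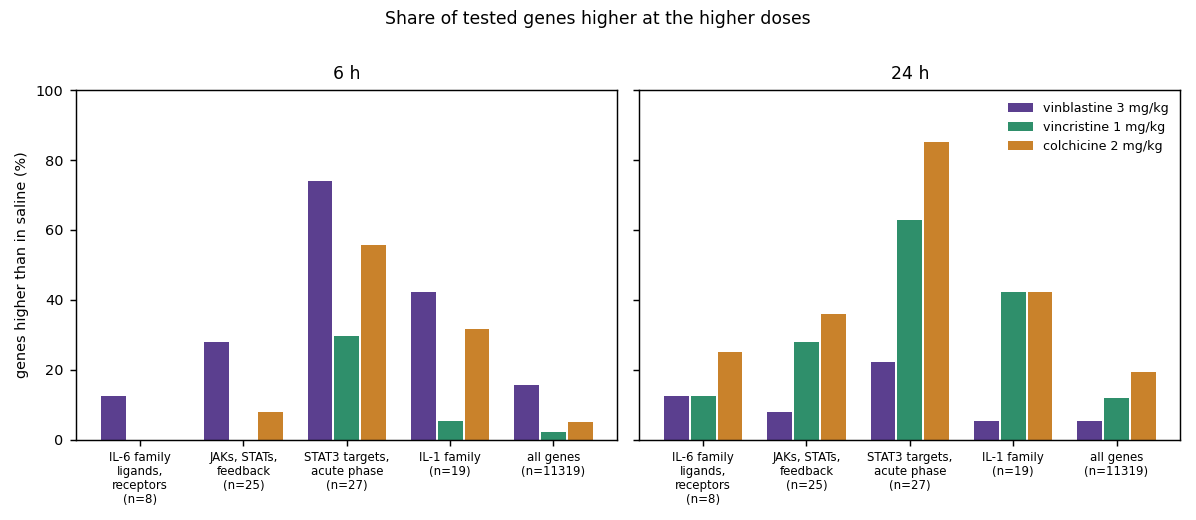
Percent of the tested genes of each list, and of all 11319 tested genes, called higher than saline at the higher dose of each compound, at 6 h and at 24 h. The STAT3 target and acute phase list has the highest share in each of the 6 comparisons, from 22.2% to 85.2%. The lists were drawn up with results of these data known.

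Some blood cell markers moved in the same hearts. The red cell markers Hbb and Alas2 were called lower at 24 h after vinblastine 3 mg/kg and vincristine 1 mg/kg. Of 4 tested T and B cell markers Cd4 alone was called, lower, at 6 h after vinblastine and 24 h after vincristine and colchicine. Of 2 tested platelet markers Itga2b alone was, lower, at 24 h after vincristine. Of all tested genes 7.67% were lower at 6 h after vinblastine, and 4.28%, 18.4% and 25.3% at 24 h for vinblastine, vincristine and colchicine. Of 10 neutrophil markers 7 were on the array and 4 were tested: Cxcr2, Csf3r and Fcgr3a were too dim, and the rest were not among the symbols. At 6 h the lowest, median and highest sums of the 7 intensities were 1496, 2069 and 8261 after vinblastine 3 mg/kg, 410, 1157 and 1566 after vincristine 1 mg/kg, and 404, 1694 and 1829 after colchicine 2 mg/kg, against 399, 412 and 512 under saline. At 24 h they were 526, 4760 and 7552 after colchicine, 1291, 1582 and 2272 after vincristine, and 568, 749 and 802 after vinblastine, against 386, 433 and 496 under saline. S100a8, S100a9 and Lcn2 were called at 6 h after vinblastine and colchicine and at 24 h after vincristine and colchicine, S100a9 alone at 6 h after vincristine, and 0 of the 4 at 24 h after vinblastine (limma), where 2 had an unadjusted p under 0.05. S100a8 read 23.8 to 32.1 under saline, below the 40th percentile of every array (38.5 to 44.1). It was therefore tested only because treated hearts were brighter, and the share of tested neutrophil markers called is partly set by the filter.

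Every neutrophil sum was above every saline sum at 6 h after vinblastine and at 24 h after vincristine, colchicine and vinblastine. At 6 h the lowest sums after vincristine and colchicine lay within the saline range. At 24 h after vinblastine S100a9 read 102 to 162, against 38.5 to 67.1 under saline, although it missed the threshold. Lcn2 alone made up most of the sum at 24 h after colchicine, with a median of 3998, while the sum of the other 6 markers had a lowest, median and highest value of 283, 674 and 795, against 216, 237 and 271 under saline. At 6 h after vinblastine the highest Lcn2 value was 7236, and the sum of the other 6 ran from 996 to 1689, against 224 to 289 under saline. S100a9, with a median of 951, made up most of that sum. Itgam, Cxcr2, Csf3r and Fcgr3a had medians of 92.7, 26.7, 30.6 and 29.2 there, against 84.9, 24.1, 24.4 and 30.3 under saline. Lcn2 and Cd14 stand both on the STAT3 target list and among these blood cell markers. Of 9 tested monocyte and macrophage markers (of 11), 2 were higher and 2 lower at 6 h after vinblastine, 1 and 3 after vincristine, and 1 and 2 after colchicine. At 24 h 5 and 0, 6 and 0, and 5 and 1 were, with median sums of 4738, 4876 and 3552 for vinblastine, vincristine and colchicine, against 2815 under saline. The colchicine sums, 2792 to 4350, overlapped those under saline, 2635.5 to 3259, while the lowest vinblastine and vincristine sums were 4512 and 4033. Of all tested genes 15.7%, 2.05% and 4.89% were called higher at 6 h, and 7.67%, 1.25% and 4.37% lower. At 24 h 5.29%, 12% and 19.3% were called higher. Of 6 tested fibroblast markers, 5 were lower and 1, Dcn, was higher at 24 h after colchicine. After vincristine 3 were lower and 0 higher, and after vinblastine Pdgfra alone was called, and it was higher. Genes called lower at 24 h made up 25.3% of all tested genes after colchicine and 18.4% after vincristine. The part of these markers' cells in the changes of Stat3, Socs3, Il6st, Il1b and Il1r1 was not tested.

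Over the means of the 14 groups, the 6 genes varied together to different degrees. Pearson's r was 0.97 between Il6st and Stat3, 0.90 between Il6st and Socs3, 0.88 between Il1b and Stat3, and 0.84 between Socs3 and Stat3, and the lowest was 0.54, between Il1r1 and Il6r. The genes most like Stat3 over these means were Fstl3, which encodes a follistatin-like binder of activins (0.995), Ctsl, the lysosomal protease cathepsin L (0.991), and Hamp, the iron hormone hepcidin (0.990). Those most like Socs3 were Fam167a (0.983), Plaur, the urokinase receptor (0.976), and Pvr, a cell adhesion molecule (0.974). At 24 h after colchicine 2 mg/kg Fstl3 averaged 1283 ± 616, against 184 ± 20.4 under saline, and Plaur 184 ± 79.4, against 41.1 ± 5.00. The 14 means share the same treatment structure and the largest values of a few groups, so these figures describe likeness over these groups.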

How the data were processed

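Heart RNA of 82 rats was measured on 82 Affymetrix arrays. The deposited values are linear intensity values, 1 per probe set; the authors' summarisation and normalization method is not given in the sources used here. Genes were named from the platform's annotation: 20826 of 31099 probe sets had 1 symbol, 436 had several and 9780 were not named, besides 57 control probe sets.

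Each gene was read from its brightest probe set by the mean over all arrays. Intensities were transformed as log2(intensity + 16). Genes above the 40th percentile of the array on at least 5 arrays were kept. One limma model (limma 3.58.1, R 4.3.3) fitted the 14 group means, 22 comparisons were drawn from it, and p-values were adjusted by Benjamini-Hochberg over 11319 genes; the script was tested on simulated data. Figures were drawn with matplotlib 3.10.9. Precision is limited by the number of arrays. The replicates are separate rats.

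The genes and lists were chosen with earlier results of these data known. The text names all 10 genes; of each pathway list, up to 3 other called genes with the largest change per comparison of a higher dose with saline; the 3 genes most correlated with Stat3 and with Socs3 over the group means; and Tuba4a and S100a9 on arrays that stood apart. Lower-dose calls on the lists are named as well, chosen after their values were seen. Alternatives were other offsets and filters, quantile normalization, the mean of probe sets, array weights, the replicate number as a block, and leaving out arrays.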

Additional observations from a re-analysis of the deposited data

Results flagged for a closer look

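In 17 of 126 groups of values, 1 array stood far from the rest of its group by Dixon's test, where chance gives about 1 in 20, or 6.3. Of these 17, 15 were high, and 10 were arrays that lay nearer another group's profile.

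Il6 was high at 34.8 in vinblastine 3 mg/kg 6 h replicate 1 (group median 16.5), at 119 in colchicine 2 mg/kg 6 h replicate 2 (others 16.8 to 21.8), at 64.2 in colchicine 2 mg/kg 24 h replicate 3 (others 13.8 to 25.1) and at 18.2 in vincristine 0.1 mg/kg 24 h replicate 1. The vinblastine array was also high for Il6r (172) and Il6st (2611, others 1267 to 1498). Stat3 was high at 4241 in vincristine 1 mg/kg 24 h replicate 5 (others 1520 to 1953) and at 1254 in vincristine 0.1 mg/kg 24 h replicate 1, and low at 1061 in colchicine 2 mg/kg 24 h replicate 1 (others 2839 to 4666).

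Colchicine 0.2 mg/kg 24 h replicate 6 was high for Il6st (1357), Stat3 (1510) and Il1b (78.0). Socs3 read 118 in vinblastine 0.5 mg/kg 6 h replicate 6, and Il1b 72.4 in vinblastine 0.5 mg/kg 24 h replicate 5. Il1b was low at 39.7 in colchicine 2 mg/kg 6 h replicate 4. Il1r1 read 450 in vincristine 1 mg/kg 24 h replicate 2, and Pim1 38.4 in saline 24 h replicate 4.

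With all arrays, the change against saline differed between the times in 3 tests: Il1r1 after vinblastine 3 mg/kg (-0.93, 24 h minus 6 h), and Il6st (0.44) and Stat3 (1.21) after colchicine 2 mg/kg.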

How the results depend on the processing

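Besides leaving out single arrays, 11 other settings were tried per comparison, and none of the changes that had passed the test turned its sign; changes that had not passed did in places, such as Stat3 after vinblastine 3 mg/kg, 24 h minus 6 h (0.09 without the 10 arrays). The number of the 6 genes called moved as follows. At 6 h, vinblastine 3 mg/kg against saline gave 5 calls. It gave 2 without the 6 arrays whose names end in _2 and 3 in a fit of those 2 groups alone. Calls over all 11319 genes fell alongside, to 1314 and 961, against 2642. The _2 arrays include vinblastine 3 mg/kg 6 h replicate 1, one of the 10 arrays, and saline 6 h replicate 2. Vincristine 1 mg/kg gave 1, but 4 without the 10 arrays nearer another group, an alternative chosen after seeing the data. Colchicine 2 mg/kg gave 1, but 2 with quantile normalization, with the mean of probe sets or without the _2 arrays, 3 in that narrower fit, and 5 with array weights or without the 10 arrays. At 24 h vincristine 1 mg/kg gave 3, but 5 with array weights or the narrower fit and 4 without the 10 arrays.

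For the higher against the lower dose, vinblastine at 6 h gave 4, but 1 without the _2 arrays and 0 in the narrower fit, where calls over all genes were 36 and 0, against 965. Vincristine at 6 h gave 1, but 0 with an offset of 64, without the filter, without the _2 arrays or in the narrower fit, 2 with array weights and 3 without the 10 arrays. Colchicine at 6 h gave 1, but 2 without the filter, with the mean of probe sets or in the narrower fit, and 5 with array weights or without the 10 arrays. Vinblastine at 24 h gave 0, but 1 with array weights or without the 10 arrays. For the change at 24 h minus that at 6 h, vincristine gave 0, but 1 with quantile normalization, array weights or without the _2 arrays, and 2 without the 10 arrays or in a fit of the compared groups alone. Colchicine gave 2, but 5 without the 10 arrays and 1 in that fit. The calls without the 10 arrays were Stat3 higher and Il1r1 lower for vincristine. For colchicine they were Il6st, Stat3, Socs3 and Il1b higher and Il1r1 lower. Where a smaller set of arrays was fitted, fewer residual degrees of freedom were left, and otherwise the cause was not tested.

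With single replicates left out, the counts ranged from 0 to 1 (vincristine 1 mg/kg, 6 h), 1 to 3 (colchicine 2 mg/kg, 6 h) and 0 to 1 (vinblastine 3 mg/kg, 24 h) against saline. For dose at 6 h they ranged from 1 to 5 (vinblastine), 0 to 1 (vincristine) and 1 to 4 (colchicine), and for time from 1 to 2, 0 to 1 and 1 to 4 for vinblastine, vincristine and colchicine. The arrays whose absence ended a single gene's call are named beside those results. Without the _2 arrays, Stat3 (0.60, adjusted p = 0.0862), Il6st (adjusted p = 0.0506) and Socs3 (0.31, adjusted p = 0.171) also lost their calls at 6 h after vinblastine 3 mg/kg against saline.

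Replicate numbers did not pair groups, since deviations of same-numbered arrays from their group means correlated at 0.02 on average. With the replicate number as a block, vincristine 1 against 0.1 mg/kg at 6 h gave 0 calls (Il1r1, adjusted p = 0.0540), and the other 21 counts did not change. Among the calls that held in every setting run were those of Stat3 at 24 h after vincristine 1 mg/kg (1.11 to 1.41) and colchicine 2 mg/kg (1.63 to 2.05), Socs3 (0.62 to 1.01) and Il6st (0.56 to 0.81) at 24 h after colchicine, Il1b at 6 h after vinblastine 3 mg/kg and at 24 h after vincristine and colchicine, and Il1r1 at 6 h after vinblastine (0.45 to 0.97).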
